A study of Mus musculus with 10 samples.

Results

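The comparison described here set 6 libraries of mouse bone marrow cells that over-expressed a mutant form of ASXL2 against 2 libraries of the same kind of cells that carried an empty vector. All 6 libraries whose deposited names hold a mutant construct were pooled into 1 class, and the batch of those names entered the test as a block, so 8 of the 10 libraries of the study were used. The mutant libraries are labelled mutant 1, mutant 2 and mutant 3, with 2 libraries each. The labels give neither the amino acid change of a mutant nor the vector's promoter, the strain or the age of the mice. The other 2 libraries carried over-expressed full-length ASXL2 and enter only where mutant and full-length ASXL2 are compared. Every group, the empty vector included, started from lineage-negative, Kit-positive bone marrow cells, was sorted for GFP and was expanded in IMDM with 15% serum, IL3, IL6 and SCF before polyadenylated RNA was sequenced. Whether replicate libraries were grown as separate cultures is not in the labels. The p-values therefore rest on the variation among the libraries alone, which may be technical. With 1 empty vector library per batch, that variation comes mostly from the mutant libraries, and it includes differences among the 3 mutants. The spread among empty vector libraries within a batch could not be measured.

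ASXL2 is a chromatin scaffold protein that binds the deubiquitinase BAP1. Together they form the Polycomb repressive deubiquitinase (PR-DUB), which removes ubiquitin from histone H2A and so counters the mark that Polycomb repressive complex 1 writes. ASXL2 is known for a role in blood stem and progenitor cells, and its gene is mutated in a form of acute myeloid leukaemia with the RUNX1-RUNX1T1 fusion.

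The 8 libraries held between 52422686 and 79320702 estimated counts each, and their log2 levels correlated at 0.975 to 0.991. The deposited names put EV replicate 1, both mutant 1 libraries and mutant 2 replicate 1 in batch 1, and EV replicate 2, mutant 2 replicate 2 and both mutant 3 libraries in batch 2. For 4 of the 6 mutant libraries the mutant number in the name differs from the label, and for mutant 1 replicate 2 and mutant 3 replicate 1 the batch differs as well. The first principal component, with 43.2% of the variance, separated the batches of the names for 8 of 8 libraries. The second, with 20.7%, held the mutant libraries between 5.63 and 22.0 and the empty vector libraries at -49.1 and -42.1. Each batch thus held 3 mutant libraries and 1 empty vector library, and leaving out either empty vector library leaves the comparison to the other batch. Levels are given below as CPM, the counts of a gene relative to the library total scaled by TMM, for the 6 mutant libraries as the lowest, the median and the highest.

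Asxl2 itself was the first check of the labels. Asxl2 (ENSMUSG00000037486, mm10 chromosome 12, 3426857 to 3506852, plus strand) stood at 797, 1027 and 1876 CPM in the mutant libraries, against 108 and 111 CPM in the empty vector libraries. Every mutant library lay above both empty vector libraries. The log2 fold change was 3.37 (SE 0.30, adjusted p = 0.00195 by the quasi-likelihood test of edgeR, adjusted after Benjamini and Hochberg over all genes), and it was 3.77 within batch 1 and 2.98 within batch 2. Asxl2 ran from 1124 to 1876 CPM over the mutant libraries in batch 1, and over those in batch 2 from 797 to 931 CPM. In TPM, which is scaled by transcript length, Asxl2 stood at 374, 505 and 1045 in the mutant libraries, against 30.1 and 28.7 in the empty vector libraries.

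The other PR-DUB genes did not pass the test. Of 12 genes on the PR-DUB list 11 were tested, and Asxl2 was the only member called, where 6.68% of all 17428 genes tested were called higher and 4.2% lower at an adjusted p under 0.05. Bap1, the catalytic subunit, stood at 69.9, 77.4 and 82.0 CPM in the mutant libraries, against 77.5 and 79.4 CPM in the empty vector libraries (log2 fold change -0.03, SE 0.05, adjusted p = 0.789). The paralogue Asxl1 stood at 91.2, 97.3 and 98.2 CPM in the mutant libraries, against 108 and 103 CPM in the empty vector libraries (log2 fold change -0.13, SE 0.05, adjusted p = 0.0963). Its groups did not overlap, yet it missed the threshold. The BAP1 partner Hcfc1 (-0.18, adjusted p = 0.113) and the forkhead partners Foxk1 (-0.13, adjusted p = 0.150) and Foxk2 (-0.04, adjusted p = 0.774) also missed it.

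Across all genes, 1164 were called higher and 732 lower in the mutants, 10.9% of those tested. The excess of rises was not seen on the TPM scale, where limma called 512 higher and 602 lower on log2(TPM + 1), and 624 and 648 on log2(TPM + 0.1). TPM was not scaled further between libraries, as CPM was by TMM. The single gene Mir6236 held 55573 to 109219 TPM in the mutant libraries, against 38966 and 58308 TPM in the empty vector libraries. Its part in these counts was not tested. By edgeR the rises were larger than the falls. The median log2 fold change was 0.76 among the genes called higher and -0.30 among those called lower, and 461 rose but 70 fell by more than 2-fold. Of the genes called lower, 599 changed by less than 1.5-fold, against 459 of those called higher. Calls also differed with level. Among genes with 1 to 10 CPM, 13.3% were called higher and 2.34% lower, while among genes with at least 100 CPM 3.78% were called higher and 10.7% lower.

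**Figure D1:**
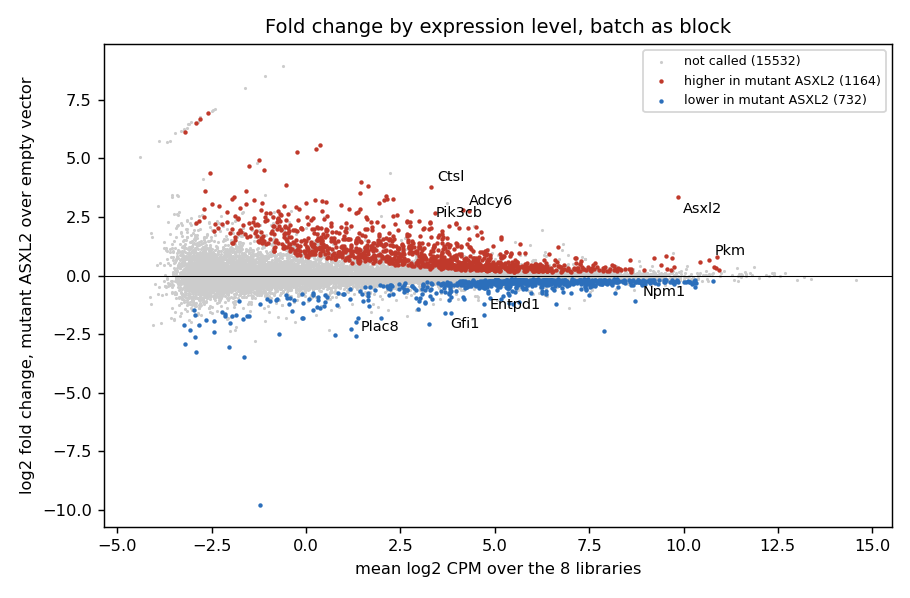
Each point is 1 of the 17428 genes tested. The horizontal axis, labelled mean log2 CPM, is the log2 of the mean CPM over the 8 libraries. The vertical axis is the log2 fold change of mutant ASXL2 over empty vector. Red points are the 1164 genes called higher and blue points the 732 called lower, and the blue points crowd close to 0 at high levels while the red points spread widely at middle levels.

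The direction was then described within each batch, in the same libraries that gave the calls. A call with batch as block favours the same sign in both batches and separate groups. The shares of called genes below are therefore no independent evidence. All 1164 genes called higher and all 732 called lower had that sign in batch 1 and in batch 2, while 64.4% of all genes tested had the same sign in both. Over all genes the differences of the 2 batches correlated at 0.522, as a description across genes, which are not independent replicates. Of the genes called higher, 919 had all 6 mutant libraries above both empty vector libraries, as had 8.73% of all genes tested. Of the genes called lower, 397 had all 6 below both, as had 5.89% of all genes tested. A test of the interaction of construct and batch by edgeR called 0 genes, with 1828 genes (10.5%) at an unadjusted p under 0.05, and DESeq2 called 250. Without the batch term the main test called 231 higher and 48 lower, and without EV replicate 1 it called 445 and 122, against 797 and 1114 without EV replicate 2. The count of genes lower was 436 without mutant 1 replicate 1, 353 without mutant 2 replicate 1 and 437 without mutant 3 replicate 2.

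**Figure D2:**
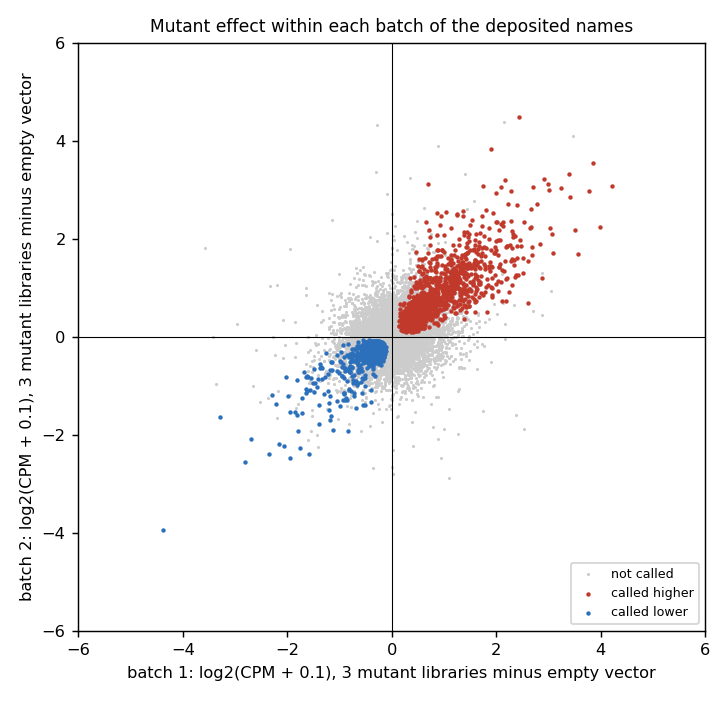
For each gene the mean difference in log2(CPM + 0.1) between 3 mutant libraries and the empty vector library of the same batch is shown for batch 1 (horizontal axis) and batch 2 (vertical axis). The 1164 genes called higher (red) lie above 0 on both axes and the 732 called lower (blue) below 0 on both, while uncalled genes (grey) lie on every side.

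The largest rises included 2 proteases, Ctsl and Bmp1. Ctsl (mm10 chromosome 13, 64359337 to 64370890), a lysosomal cysteine protease, stood at 7.42, 12.1 and 23.4 CPM in the mutant libraries, against 0.795 and 0.939 CPM in the empty vector libraries. On the log2 scale Ctsl rose by 3.79 (SE 0.45, adjusted p = 0.00410), with 4.22 in batch 1 and 3.08 in batch 2. Bmp1 (mm10 chromosome 14, 70474558 to 70520234), a metalloprotease that trims procollagens, stood at 3.07, 5.63 and 8.22 CPM in the mutant libraries, against 0.511 and 0.513 CPM in the empty vector libraries (log2 fold change 3.40, SE 0.44, adjusted p = 0.00348). In both genes every mutant library was above both empty vector libraries. Neither passed without EV replicate 1, at adjusted p = 0.0685 for Ctsl and 0.0818 for Bmp1.

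An adhesion adaptor, an actin crosslinker and signalling enzymes were also among the largest rises. The focal adhesion adaptor Bcar1 stood at 3.94, 5.42 and 7.71 CPM in the mutant libraries, against 0.682 and 0.499 CPM in the empty vector libraries (log2 fold change 3.28, SE 0.27, adjusted p = 0.000164). Adcy6, an adenylyl cyclase that makes cyclic AMP, stood at 19.6, 20.8 and 28.3 CPM in the mutant libraries, against 3.26 and 3.33 CPM in the empty vector libraries (log2 fold change 2.79, SE 0.22, adjusted p = 0.000462). The Ras-family exchange factor Rasgef1a stood at 5.06, 9.08 and 11.98 CPM in the mutant libraries, against 1.59 and 0.998 CPM in the empty vector libraries (log2 fold change 2.75, SE 0.21). For these 3 genes the groups were separate by a wide margin, and their calls held when any 1 library was left out. The actin crosslinker Actn1 stood at 7.92, 13.1 and 19.4 CPM in the mutant libraries, against 2.93 and 1.42 CPM in the empty vector libraries (log2 fold change 2.66, SE 0.54, adjusted p = 0.0297). Actn1 lost its call without EV replicate 1 (adjusted p = 0.168), EV replicate 2 (0.176), mutant 1 replicate 1 (0.0608) or mutant 2 replicate 1 (0.0629).

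The rest of the 12 largest rises had log2 fold changes between 2.55 and 3.25. Ube2e2, a ubiquitin-conjugating enzyme, stood at 4.70, 6.38 and 8.65 CPM in the mutant libraries, against 0.909 and 0.455 CPM in the empty vector libraries. Trp53i11 stood at 3.67, 5.33 and 7.48 CPM in the mutant libraries, against 0.435 and 0.733 CPM in the empty vector libraries. Both had an adjusted p of 5.14e-05, the smallest of the comparison. Sel1l3 rose by 2.74, the microtubule-binding Slain1 by 2.57 and Atrnl1 by 2.55 on the log2 scale, each with every mutant library above both empty vector libraries.

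Other genes were named for a small p with a smaller rise. Siae, an esterase that removes acetyl groups from sialic acids, stood at 15.5, 16.1 and 16.7 CPM in the mutant libraries, against 6.68 and 7.16 CPM in the empty vector libraries (log2 fold change 1.22, SE 0.07). Arhgap5, a GTPase-activating protein, stood at 17.7, 19.8 and 22.1 CPM in the mutant libraries, against 8.80 and 8.36 CPM in the empty vector libraries (log2 fold change 1.22, SE 0.07). The spread among the mutant libraries of Siae and Arhgap5 was smaller than the distance to the empty vector. Tpd52 rose by 1.74 (SE 0.11) and Fkbp9, a peptidyl-prolyl isomerase of the endoplasmic reticulum, by 1.03 (SE 0.07). Fkbp9 stood at 18.9, 27.9 and 37.9 CPM in the mutant libraries, against 9.86 and 17.3 CPM in the empty vector libraries, so the groups nearly met across batches. It had an adjusted p of 5.14e-05 with the block and 0.269 without it.

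The largest falls included a surface enzyme, Entpd1, and a lineage repressor, Gfi1. Entpd1 (CD39, mm10 chromosome 19, 40612366 to 40741602), which breaks down extracellular ATP and ADP, stood at 10.9, 16.2 and 24.6 CPM in the mutant libraries, against 59.1 and 49.4 CPM in the empty vector libraries. On the log2 scale Entpd1 fell by 1.67 (SE 0.26, adjusted p = 0.0131). Gfi1 (mm10 chromosome 5, 107716657 to 107726036), a transcriptional repressor of granulocyte and stem cell programmes, stood at 5.80, 8.31 and 12.6 CPM in the mutant libraries, against 24.3 and 27.0 CPM in the empty vector libraries (log2 fold change -1.61, SE 0.24, adjusted p = 0.00831). In both genes every mutant library was below both empty vector libraries, and the falls were of like size in batch 1 (-1.81 and -1.72) and batch 2 (-1.60 and -1.56). The adjusted p without EV replicate 1 or 2 was 0.182 or 0.0672 for Entpd1 and 0.141 or 0.0528 for Gfi1.

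Several signalling genes were lower. Tnfsf4, the ligand of the co-stimulatory receptor OX40, stood at 1.90, 2.21 and 2.78 CPM in the mutant libraries, against 5.55 and 5.90 CPM in the empty vector libraries (log2 fold change -1.31, SE 0.16, adjusted p = 0.000975), and its call held without any 1 library. Dusp6, a phosphatase that switches off ERK, stood at 21.7, 33.1 and 47.6 CPM in the mutant libraries, against 78.0 and 73.2 CPM in the empty vector libraries (log2 fold change -1.21, SE 0.24, adjusted p = 0.0289). Dusp6 lost its call without EV replicate 1 (adjusted p = 0.311), mutant 2 replicate 1 (0.0657) or mutant 3 replicate 2 (0.0535). The glutamate receptor gene Grm6 fell by 1.60 (SE 0.24) and the T cell adaptor gene Skap1 by 1.81 (SE 0.29) on the log2 scale, and without EV replicate 1 they stood at adjusted p = 0.105 and 0.113.

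Some of the largest falls were of low or uncertain genes. Plac8 stood at 0.223, 1.12 and 1.91 CPM in the mutant libraries, against 8.99 and 4.46 CPM in the empty vector libraries (log2 fold change -2.60, SE 0.57, adjusted p = 0.0345). Its call was lost without either empty vector library (adjusted p = 0.336 and 0.123) and without either library of mutant 1 or mutant 2 (0.0634 to 0.0886). The sphingosine-1-phosphate receptor gene S1pr3 fell by 1.98 (SE 0.42, adjusted p = 0.0257) and lost its call without EV replicate 1 (0.176) or 2 (0.174), mutant 1 replicate 1 (0.0641) or either library of mutant 2 (0.0535 and 0.0582). The copine gene Cpne7 fell by 2.27 (SE 0.29). The mast cell protease gene Mcpt2 stood at 2.35, 4.87 and 7.42 CPM in the mutant libraries, against 8.94 and 37.4 CPM in the empty vector libraries. Mcpt2 belongs to a family of similar copies, and Trav6-3 and Tcrg-C1 are segments of T cell receptor genes with near-identical relatives, so reads may be shared among copies. Trav6-3 fell by 1.80 (SE 0.33, adjusted p = 0.0125, and 0.186 without EV replicate 1). Tcrg-C1 fell by 1.22 (SE 0.29, adjusted p = 0.0489) and passed in no fit that left out 1 library except that without mutant 2 replicate 2.

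**Figure D3:**
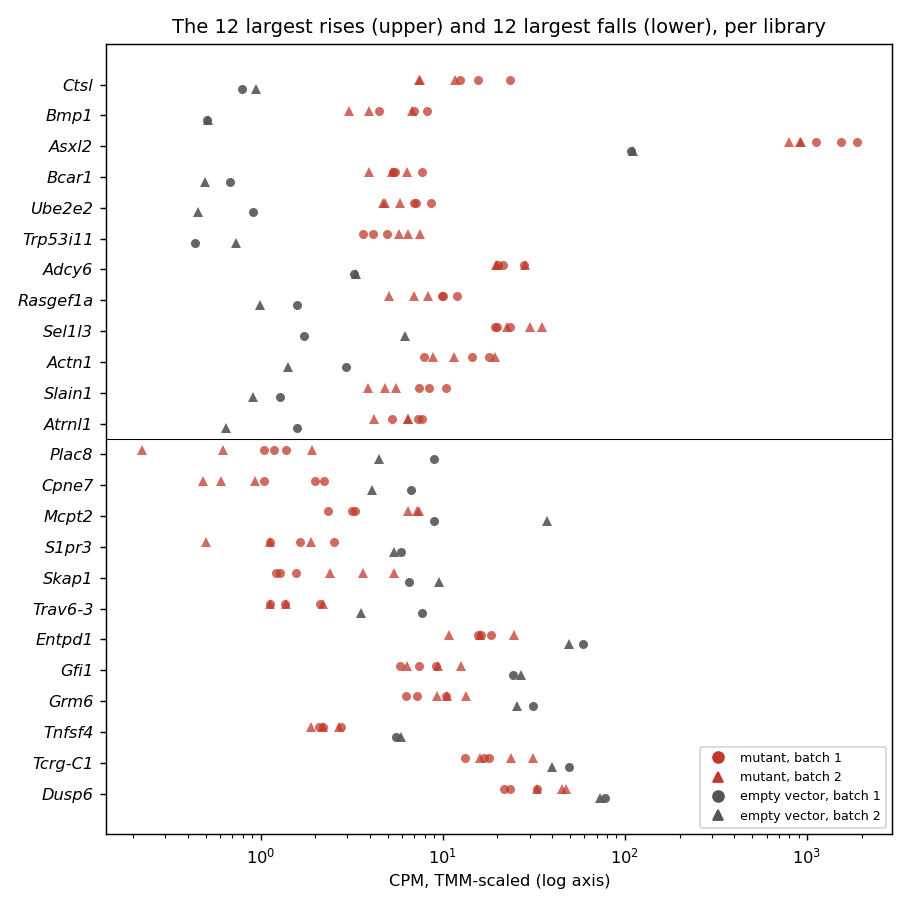
CPM on a log axis for the 12 genes with the largest rise (upper block) and the 12 with the largest fall (lower block) by the rule for named genes, with 1 point per library. Red marks are the 6 mutant libraries and grey marks the 2 empty vector libraries, circles are batch 1 and triangles batch 2, and in each of the 24 genes the red and grey marks do not overlap.

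Among the falls with the smallest p-values, Milr1, an inhibitory receptor of mast cells, stood at 31.9, 35.5 and 37.0 CPM in the mutant libraries, against 61.4 and 54.4 CPM in the empty vector libraries (log2 fold change -0.73, SE 0.06, adjusted p = 0.000231). Cyp1b1, a cytochrome P450, fell by 0.64 (SE 0.07), the lipid flippase gene Atp10a by 0.66 (SE 0.07) and Emb, a chaperone of lactate transporters, by 0.76 (SE 0.08). Cpt1a, which carries fatty acids into mitochondria, stood at 20.7, 27.7 and 38.2 CPM in the mutant libraries, against 34.6 and 82.8 CPM in the empty vector libraries (log2 fold change -0.98, SE 0.09, adjusted p = 0.000463). Pooled over batches the groups of Cpt1a overlapped, and its fall was -0.72 in batch 1 and -1.20 in batch 2. Without the block Emb and Cpt1a did not pass (adjusted p = 0.237 and 0.218).

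Mutant ASXL2 was also set against full-length ASXL2 in a fit of all 10 libraries with the same block. Here 33 genes were higher and 38 lower with mutant ASXL2 among 17810 tested, 0.185% and 0.213%. Asxl2 stood at 1384 and 992 CPM in the full-length libraries, within the range of the mutant libraries (log2 difference -0.01, adjusted p = 0.994). Of the 1164 genes called higher in the mutants against the empty vector, 30 differed from full-length ASXL2, 25 of them above it, and of the 732 called lower 9 differed, all below it. The same mutant libraries entered both comparisons. For genes picked by their call, size or p against the empty vector, the side of full-length ASXL2 is thus favoured in advance. A gene that did not pass here is not shown to act alike in both. Among the 33 genes named by size or p, the 4 that passed were all higher with mutant than with full-length ASXL2, namely Ube2e2 (log2 difference 1.99), Trp53i11 (1.23), Rasgef1a (1.21) and Arhgap5 (0.39). The count of 71 was 2 without full-length replicate 2 and 47 without replicate 1. Leaving out a mutant library gave 41 for mutant 1 replicate 1, 24 and 46 for mutant 2 replicates 1 and 2 and 28 for mutant 3 replicate 2, and leaving out either empty vector library gave 111. Without the block edgeR called 0 genes, with 720 at an unadjusted p under 0.05, and DESeq2 with the block called 491.

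Genes of glycolysis and of the response to low oxygen were higher in the mutants. In this response the factor HIF binds the core letters ACGTG or GCGTG in promoters and raises genes of glucose uptake and glycolysis. Of the 30 listed genes, all tested, 12 were called higher and 0 lower, against 6.68% and 4.2% of all genes tested. Of the 30, 28 had a positive fold change. The median log2 fold change was 0.62 (0.49 in batch 1 and 0.69 in batch 2), against -0.02 over all genes tested. The list, like all gene lists used here, was chosen with earlier results of these libraries known. Its direction and its share of calls are therefore no independent evidence. Of the 12 genes called, 6 had all mutant libraries above both empty vector libraries, against 78.95% of all genes called higher.

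The 12 called genes were the glucose transporter Slc2a1, the glycolytic enzymes Gpi1, Pfkp, Aldoa, Aldoc, Gapdh, Pgk1 and Pkm, and Pdk1, Vegfa, Bnip3l and Ankrd37. Slc2a1 stood at 155, 161 and 208 CPM in the mutant libraries, against 116 and 106 CPM in the empty vector libraries (log2 fold change 0.62, SE 0.12, adjusted p = 0.0143). The phosphofructokinase Pfkp stood at 358, 430 and 454 CPM in the mutant libraries, against 290 and 243 CPM in the empty vector libraries (log2 fold change 0.66, SE 0.09, adjusted p = 0.00267). Neither gene had overlapping groups. The pyruvate kinase Pkm stood at 1214, 1872 and 2196 CPM in the mutant libraries, against 1397 and 902 CPM in the empty vector libraries (log2 fold change 0.65, SE 0.12), so here the groups overlapped and the rise was seen within batches (0.61 and 0.67). The kinase Pdk1, which keeps pyruvate out of mitochondria, stood at 31.3, 39.8 and 56.9 CPM in the mutant libraries, against 19.6 and 8.73 CPM in the empty vector libraries (log2 fold change 1.65, SE 0.36, adjusted p = 0.0401). Slc2a1 without EV replicate 1 or 2 stood at adjusted p = 0.101 or 0.125 and Pkm at 0.110 or 0.0783, while Pfkp passed in every fit that left out 1 library. Pdk1 kept its call only without mutant 3 replicate 1, at 0.0517 to 0.175 in the other fits that left out 1 library.

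Known HIF targets outside the pathway rose too. Ankrd37 stood at 2.88, 5.92 and 7.14 CPM in the mutant libraries, against 2.31 and 0.983 CPM in the empty vector libraries (log2 fold change 1.83, SE 0.37, adjusted p = 0.0193, and 0.0796 or 0.127 without EV replicate 1 or 2), with no overlap. The growth factor Vegfa rose by 0.76 (SE 0.18), and the mitophagy receptor Bnip3l by 0.33 (SE 0.07). The lactate dehydrogenase Ldha (0.29, adjusted p = 0.0617), the hexokinase Hk2 (0.86, adjusted p = 0.0643) and the prolyl hydroxylase Egln3 (4.38, adjusted p = 0.0995) did not pass. Against 12 in the whole set, leaving out either empty vector library gave 2 called genes. Leaving out mutant 2 replicate 1 gave 7, mutant 3 replicate 1 gave 20, and dropping the block gave 3.

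The promoters of 3 of these genes are shown because they hold the HIF core within 250 bases before to 50 after the start. The sequences are the RefSeq windows of GRCm38.p6 (mm10), read 5′ to 3′ on the gene's strand, with ACGTG or GCGTG on either strand in capitals.
Ankrd37 (chr8:45999801-46000100, minus strand): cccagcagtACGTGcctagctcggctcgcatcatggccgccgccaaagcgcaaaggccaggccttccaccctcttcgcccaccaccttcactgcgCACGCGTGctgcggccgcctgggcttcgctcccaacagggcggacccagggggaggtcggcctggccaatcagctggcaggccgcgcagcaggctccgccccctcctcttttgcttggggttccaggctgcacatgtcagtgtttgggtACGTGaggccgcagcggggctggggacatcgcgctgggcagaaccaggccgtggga
Slc2a1 (chr4:119108495-119108794, plus strand): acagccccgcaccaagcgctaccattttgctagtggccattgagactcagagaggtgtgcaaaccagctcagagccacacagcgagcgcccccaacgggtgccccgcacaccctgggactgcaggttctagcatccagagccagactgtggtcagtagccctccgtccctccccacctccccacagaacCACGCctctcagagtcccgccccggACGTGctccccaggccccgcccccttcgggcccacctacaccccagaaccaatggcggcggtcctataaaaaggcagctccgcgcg
Pdk1 (chr2:71872974-71873273, plus strand): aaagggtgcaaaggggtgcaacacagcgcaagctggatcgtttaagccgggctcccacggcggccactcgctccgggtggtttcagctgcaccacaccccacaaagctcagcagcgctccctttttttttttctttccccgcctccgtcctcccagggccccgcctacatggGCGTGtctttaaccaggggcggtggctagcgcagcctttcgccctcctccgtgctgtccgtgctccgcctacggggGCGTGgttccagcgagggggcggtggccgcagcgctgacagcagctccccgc
Ankrd37 holds 4 such sites, of which 2 overlap, Slc2a1 holds 2, and this window of Pdk1 holds 2. The other window of Pdk1 holds 0. For this and the later motifs, a gene counted if any of its windows held the letters. Of the 11 called genes of the list with a window, 10 (90.9%) hold ACGTG or GCGTG, against 64.8% of the 11419 tested genes with a window. The share was alike over all tested members of the list, called or not (24 of 26, 92.3%), and 16 of 20 called ribosome biogenesis genes (80%), which fell, hold these letters too. ACGTG alone was held by 8 of the 11 (72.7%) and by 20 of the 26 tested members (76.9%), against 28.3%. Counted per window, 70.6% of the 17 windows of the called genes held ACGTG or GCGTG, against 59.0% of 14512 windows of tested genes. The difference was thus smaller per window than per gene. ACGTG alone was in 52.9% and 24.4% of these windows. A match is a description and not evidence of binding.

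Genes of ribosome biogenesis, many of them MYC targets, were lower in the mutants. Of the 34 listed genes, all tested, 25 were called lower and 0 higher, against 4.2% and 6.68% of all genes tested. All 34 had a negative fold change. The falls were small, with a median log2 fold change of -0.30 (-0.44 in batch 1 and -0.18 in batch 2). Of the 25, 6 had all mutant libraries below both empty vector libraries, against 54.23% of all genes called lower. This list too was chosen with earlier results known.

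The called members act from transcription of ribosomal RNA to its processing. Npm1, a nucleolar chaperone, stood at 388, 410 and 473 CPM in the mutant libraries, against 484 and 530 CPM in the empty vector libraries (log2 fold change -0.27, SE 0.05, adjusted p = 0.0114), with no overlap. Cad, the enzyme that starts pyrimidine synthesis, stood at 66.6, 81.4 and 111 CPM in the mutant libraries, against 127 and 126 CPM in the empty vector libraries (log2 fold change -0.62, SE 0.12, adjusted p = 0.0188). The spermidine synthase Srm stood at 94.0, 113 and 141 CPM in the mutant libraries, against 141 and 165 CPM in the empty vector libraries (log2 fold change -0.41, SE 0.06, adjusted p = 0.00348). The rRNA methyltransferase Fbl fell by 0.36 (SE 0.07), the RNA polymerase I subunit Polr1b by 0.31 (SE 0.06), nucleolin (Ncl) by 0.31 (SE 0.06) and the pseudouridine synthase Dkc1 by 0.40 (SE 0.08). Myc itself stood at 61.9, 88.7 and 112 CPM in the mutant libraries, against 126 and 116 CPM in the empty vector libraries, and missed the threshold (log2 fold change -0.52, SE 0.17, adjusted p = 0.108).

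The falls were larger in batch 1, and the ribosome biogenesis calls were not made in batch 2 alone. Without EV replicate 1, when batch 2 alone informs the comparison, edgeR called 0 of the 34, with 12 at an unadjusted p under 0.05, and without EV replicate 2 it called 29. Without the block, and likewise against a fold threshold of 1.2, edgeR called 0 with 8 at an unadjusted p under 0.05, while DESeq2 with the block called 30. Without mutant 2 replicate 1 the count was 13. The median of the list lay between -0.46 and -0.38 in the 3 mutant libraries of batch 1 and between -0.23 and -0.10 in those of batch 2.

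The promoters of Wdr43 and Tsr1, members that act in the maturation of the small ribosomal subunit and were called lower, are shown because they hold CACGTG, the letters that MYC binds. The windows are those of RefSeq GRCm38.p6, with CACGTG in capitals.
Wdr43 (chr17:71615965-71616264, plus strand): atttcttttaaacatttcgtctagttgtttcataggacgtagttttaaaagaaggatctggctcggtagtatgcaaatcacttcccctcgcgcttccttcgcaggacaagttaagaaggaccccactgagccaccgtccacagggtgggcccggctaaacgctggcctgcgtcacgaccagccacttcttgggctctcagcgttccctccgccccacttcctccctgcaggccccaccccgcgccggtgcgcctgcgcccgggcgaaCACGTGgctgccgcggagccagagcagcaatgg
Tsr1 (chr11:74897830-74898129, plus strand): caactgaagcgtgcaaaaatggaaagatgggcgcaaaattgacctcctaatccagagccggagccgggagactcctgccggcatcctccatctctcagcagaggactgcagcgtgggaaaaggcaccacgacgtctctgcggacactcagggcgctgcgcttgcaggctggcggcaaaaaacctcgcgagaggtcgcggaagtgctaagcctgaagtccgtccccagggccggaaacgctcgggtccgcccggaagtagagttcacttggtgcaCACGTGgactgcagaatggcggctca
CACGTG was held by 5 of the 20 called members with a window (25%), against 11.3% of all tested genes with one. The share was alike over all tested members of the list, called or not (7 of 27, 25.9%). Each CACGTG also holds ACGTG, on both strands. Wdr43 stood at 49.7, 59.5 and 77.0 CPM in the mutant libraries, against 63.5 and 84.7 CPM in the empty vector libraries (log2 fold change -0.28, SE 0.05, adjusted p = 0.0111). Tsr1 stood at 53.8, 71.4 and 90.3 CPM in the mutant libraries, against 79.8 and 97.2 CPM in the empty vector libraries (log2 fold change -0.33, SE 0.07, adjusted p = 0.0204). In both genes the groups overlapped across batches and the sign was the same within each.

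Genes of the ATF4 and unfolded protein response were also lower. ATF4 is a factor that cells translate under amino acid or protein folding stress, and it raises genes of amino acid synthesis and transport. Of the 30 listed genes, all tested, 12 were called lower and 0 higher, against 4.2% and 6.68% of all genes tested. The median log2 fold change of the list was -0.20 (-0.31 in batch 1 and -0.09 in batch 2). Earlier results were known when this list was chosen, so its share of calls is no independent evidence. Atf4 stood at 358, 457 and 624 CPM in the mutant libraries, against 525 and 665 CPM in the empty vector libraries (log2 fold change -0.35, SE 0.08, adjusted p = 0.0175). Its groups overlapped, and it was lower within both batches. Chac1, which degrades glutathione, stood at 7.04, 14.4 and 25.7 CPM in the mutant libraries, against 20.4 and 33.5 CPM in the empty vector libraries (log2 fold change -0.98, SE 0.17, adjusted p = 0.0129). The stress sensor Sesn2 fell by 0.52 (SE 0.07), the pseudokinase Trib3 by 0.42 (SE 0.06), the asparagine synthetase Asns by 0.30 (SE 0.08) and Xbp1, the factor of the IRE1 branch, by 0.40 (SE 0.09). Sesn2 passed in every fit that left out 1 library, while without EV replicate 1 Atf4 (adjusted p = 0.318), Chac1 (0.0608), Trib3 (0.0558), Asns (0.562) and Xbp1 (0.262) did not.

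The promoters of Chac1, Trib3 and Asns are shown because each holds TGATGNAA, the letters of the composite element that ATF4 binds with C/EBP factors. The windows are those of RefSeq GRCm38.p6, with the match on either strand in capitals.
Chac1 (chr2:119350992-119351291, plus strand): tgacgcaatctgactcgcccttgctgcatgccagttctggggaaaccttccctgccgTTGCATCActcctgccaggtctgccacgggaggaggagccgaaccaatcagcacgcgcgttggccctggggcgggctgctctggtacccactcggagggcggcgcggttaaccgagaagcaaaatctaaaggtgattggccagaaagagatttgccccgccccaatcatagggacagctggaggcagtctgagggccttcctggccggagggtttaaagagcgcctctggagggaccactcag
Trib3 (chr2:152344011-152344310, minus strand): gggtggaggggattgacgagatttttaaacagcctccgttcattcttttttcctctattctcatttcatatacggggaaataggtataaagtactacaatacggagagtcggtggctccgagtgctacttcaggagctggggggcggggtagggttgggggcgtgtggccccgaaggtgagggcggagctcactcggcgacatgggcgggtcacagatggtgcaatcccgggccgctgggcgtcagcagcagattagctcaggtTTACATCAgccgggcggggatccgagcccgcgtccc
Asns (chr6:7693160-7693459, minus strand): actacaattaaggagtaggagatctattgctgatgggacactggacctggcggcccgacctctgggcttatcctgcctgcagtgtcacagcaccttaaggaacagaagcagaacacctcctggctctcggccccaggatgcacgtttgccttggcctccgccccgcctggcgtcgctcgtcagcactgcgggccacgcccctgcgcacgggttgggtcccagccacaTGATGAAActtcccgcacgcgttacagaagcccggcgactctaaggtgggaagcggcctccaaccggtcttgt
The letters were found in 4 of the 10 called members with a window (40%), against 2.92% of all tested genes with one. They were also found in 8 of the 27 tested members with a window, called or not (29.6%). They were chosen for the known biology of ATF4 and mark no measured binding. The count of 12 called members was 2 if EV replicate 1 was left out and 18 if EV replicate 2 was, and without the block edgeR called 0, with 4 lower at an unadjusted p under 0.05. DESeq2 with the block called 13 lower.

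Targets of p53 moved in both directions, mostly down. Of the 28 listed genes 27 were tested, and 8 were called lower and 2 higher, against 4.2% and 6.68% of all genes tested. The median log2 fold change of the list was -0.17 (-0.19 in batch 1 and -0.16 in batch 2). Earlier results were known when this list was chosen as well. The death receptor Eda2r stood at 8.99, 11 and 13.6 CPM in the mutant libraries, against 17.2 and 18.8 CPM in the empty vector libraries (log2 fold change -0.70, SE 0.10, adjusted p = 0.00221). Ccng1, a cyclin that p53 induces, stood at 157, 166 and 193 CPM in the mutant libraries, against 207 and 233 CPM in the empty vector libraries (log2 fold change -0.37, SE 0.06, adjusted p = 0.00348). Neither gene had overlapping groups. The ubiquitin ligase Mdm2 fell by 0.17 (SE 0.04), while the cell death gene Pmaip1 rose by 0.35 (SE 0.08) and the ribonucleotide reductase subunit Rrm2b by 0.23 (SE 0.05). Cdkn1a stood at 202, 221 and 274 CPM in the mutant libraries, against 256 and 276 CPM in the empty vector libraries, and did not pass (adjusted p = 0.0606). Leaving out EV replicate 1 gave 3 lower and 0 higher, EV replicate 2 gave 6 and 1, and without the block 1 and 0. Without either library of mutant 1, mutant 2 replicate 1 or mutant 3 replicate 2, 4 or 5 were lower.

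**Figure D4:**
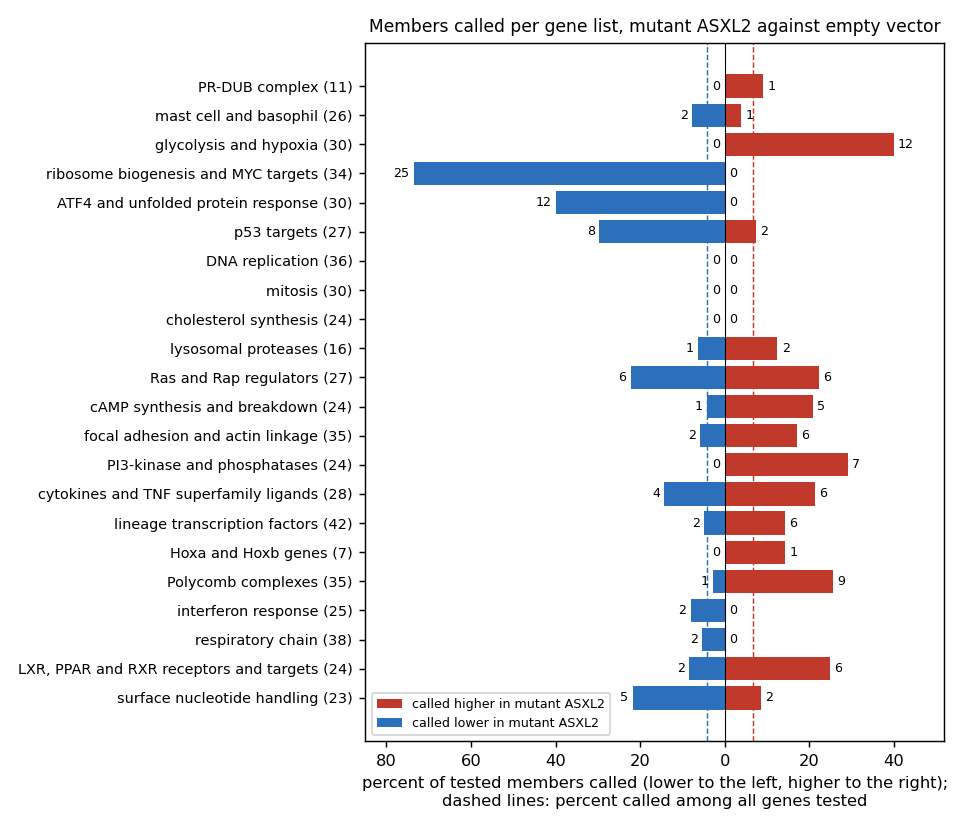
Percent of the tested members of each of the 22 pathway lists called higher (red, to the right) or lower (blue, to the left) in mutant ASXL2, with the number called beside each bar and the number tested in brackets. Dashed lines mark 6.68% and 4.2%, the shares called among all genes. The longest bars are the 25 ribosome biogenesis and 12 ATF4 genes called lower and the 12 glycolysis and hypoxia genes called higher. All lists were chosen with earlier results of these data known, so bars beyond the dashed lines are no independent evidence.

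Lists of the cell cycle and of cholesterol synthesis held no called gene and differed between batches. All 30 mitosis genes had a negative fold change, with a median of -0.22, but it was -0.53 in batch 1 and 0.13 in batch 2. The mitotic kinase gene Cdk1, for example, stood at 44.0, 66.0 and 87.1 CPM in the mutant libraries, against 71.4 and 74.2 CPM in the empty vector libraries (adjusted p = 0.500). The median of the 36 DNA replication genes was -0.23, with -0.45 in batch 1 and -0.00 in batch 2. For the 24 cholesterol synthesis genes it was 0.10, with -0.13 in batch 1 and 0.36 in batch 2. Without EV replicate 2 the test called 30 DNA replication and 27 mitosis genes lower, and without EV replicate 1 it called 8 cholesterol genes higher. At an unadjusted p under 0.05 edgeR had 20 DNA replication and 2 mitosis genes lower and 5 cholesterol genes higher, and DESeq2 called 7, 1 and 4 of them at an adjusted p under 0.05.

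**Figure D5:**
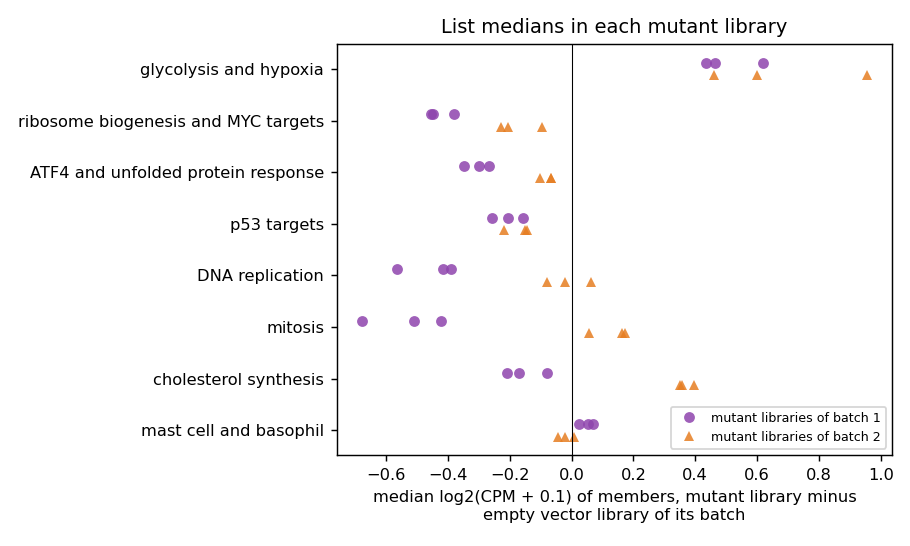
Median difference in log2(CPM + 0.1) over the tested members of 8 lists, each mutant library minus the empty vector library of its batch, with circles for batch 1 and triangles for batch 2. The glycolysis medians lie above 0 and the ribosome biogenesis, ATF4 and p53 medians below 0 in all 6 libraries, while the mitosis and cholesterol medians lie on opposite sides of 0 in the 2 batches.

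Genes of PI3-kinase signalling, which turns receptor signals into lipid messengers, included 7 called higher and 0 called lower of 24 tested. Of all genes tested 6.68% were called higher and 4.2% lower. This list and those that follow were chosen with earlier results of these data known. Their shares of calls, set beside those of all genes, are therefore no independent evidence. The catalytic subunit Pik3cb stood at 10.3, 11.3 and 14.9 CPM in the mutant libraries, against 2.56 and 2.49 CPM in the empty vector libraries (log2 fold change 2.26, SE 0.18, adjusted p = 0.000164), and no library left out ended its call. The regulatory subunit Pik3r5 rose by 1.98 (SE 0.26), the class II kinases Pik3c2a by 0.72 (SE 0.12) and Pik3c2b by 1.44 (SE 0.32). Members that remove phosphates rose as well, namely the lipid phosphatases Inppl1, by 0.49 (SE 0.08), and Inpp4a, by 0.56 (SE 0.15). The count was 2 without EV replicate 1, and likewise 2 without the block.

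Of 24 tested genes of cyclic AMP synthesis and breakdown, 5 were called higher and 1 lower, against 6.68% and 4.2% of all genes tested. Beside Adcy6, the rises were in phosphodiesterases, which break cyclic AMP down, and in 1 kinase subunit. Pde8a stood at 11.5, 17.1 and 22.1 CPM in the mutant libraries, against 5.68 and 2.55 CPM in the empty vector libraries (log2 fold change 2.11, SE 0.25, adjusted p = 0.00261), with no overlap. Pde7b rose by 1.09 (SE 0.30), Pde3b by 0.21 (SE 0.05) and the protein kinase A subunit Prkacb by 0.25 (SE 0.07), while the regulatory subunit Prkar2b fell by 0.22 (SE 0.04). With EV replicate 1 left out the counts were 2 and 0. Without mutant 1 replicate 2 or mutant 2 replicate 1, 2 were higher, and without mutant 1 replicate 1, mutant 2 replicate 2 or mutant 3 replicate 1, 3 were.

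Of 27 tested regulators of Ras and Rap, 6 were called higher and 6 lower, against 6.68% and 4.2% of all genes tested. The exchange factors went both ways, with Rasgrp2 higher by 1.25 (SE 0.28) and Rasgrp1 lower by 0.50 (SE 0.10) on the log2 scale. Rasgrp1 stood at 19.97, 23.7 and 28.3 CPM in the mutant libraries, against 32.6 and 35.3 CPM in the empty vector libraries, with no overlap, and lost its call without EV replicate 1 (adjusted p = 0.199) or 2 (0.0567). The GTPase-activating Rasa2 stood at 5.82, 8.10 and 10.3 CPM in the mutant libraries, against 13.6 and 16.1 CPM in the empty vector libraries (log2 fold change -0.88, SE 0.12, adjusted p = 0.00221). The feedback inhibitor Spry1 was low everywhere, at 0.0129, 0.0943 and 0.157 CPM in the mutant libraries, against 0.701 and 0.719 CPM in the empty vector libraries (log2 fold change -3.04, SE 0.48, adjusted p = 0.00410, and 0.0597 without EV replicate 1), while Spry2 rose by 0.52 (SE 0.12). Without EV replicate 1 the counts were 2 higher and 1 lower, without EV replicate 2 they were 2 and 3, and without mutant 2 replicate 1 they were 2 and 4.

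Of 35 tested genes of focal adhesion and actin linkage, 6 were called higher and 2 lower, against 6.68% and 4.2% of all genes tested. Beside Bcar1 and Actn1, the focal adhesion kinase Ptk2 stood at 4.10, 6.21 and 9.92 CPM in the mutant libraries, against 3.88 and 2.90 CPM in the empty vector libraries (log2 fold change 0.91, SE 0.16, adjusted p = 0.00766, and 0.124 without EV replicate 1). Tns1, which links integrins to actin, stood at 32.2, 43.3 and 55.9 CPM in the mutant libraries, against 18.6 and 10.3 CPM in the empty vector libraries (log2 fold change 1.55, SE 0.34, adjusted p = 0.0384). Both had every mutant library above both empty vector libraries. Tns1 lost its call without mutant 1 replicate 2 (adjusted p = 0.0829), either library of mutant 2 (0.0618 and 0.0634) or mutant 3 replicate 2 (0.0669). The integrin chain Itgb1 rose by 0.21 (SE 0.05), while the actin-binding Vasp fell by 0.22 (SE 0.05). Leaving out EV replicate 1 gave 3 higher and 0 lower, and dropping the block gave 4 and 0. The count of genes lower was 1 without either library of mutant 1, mutant 2 replicate 1 or mutant 3 replicate 2.

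Genes of the Polycomb complexes, which PR-DUB counters, were called higher for 9 and lower for 1 of 35 tested. Of all genes tested 6.68% were called higher and 4.2% lower. The chromodomain subunits Cbx6, Cbx7 and Cbx2 of Polycomb repressive complex 1 rose by 0.44 (SE 0.05), 0.78 (SE 0.14) and 0.51 (SE 0.09) on the log2 scale. Cbx6 stood at 90.5, 103 and 115 CPM in the mutant libraries, against 80.2 and 69.6 CPM in the empty vector libraries, with no overlap. Cbx7 stood at 24.6, 40.6 and 57.3 CPM in the mutant libraries, against 28.5 and 18.6 CPM in the empty vector libraries, with overlap across batches. Rybp, which recruits a variant of this complex, rose by 0.40 (SE 0.06) and its partner subunit Pcgf5 by 0.63 (SE 0.10), while the polyhomeotic subunit Phc1 fell by 0.36 (SE 0.08). The median of the list was 0.02. Without EV replicate 1 the counts were 2 higher and 0 lower, without EV replicate 2 they were 5 and 3, without mutant 3 replicate 2 they were 9 and 0, and without the block 1 and 0. In the fit without EV replicate 1 Cbx7, Cbx2 and Pcgf5 stood at adjusted p = 0.175, 0.0658 and 0.0535, and without EV replicate 2 Cbx2 stood at 0.0539.

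Of 42 tested transcription factors of blood lineages, 6 were called higher and 2 lower, against 6.68% and 4.2% of all genes tested. Beside Gfi1, Fli1 fell by 0.15 (SE 0.04). Cebpd, a factor of myeloid cells, stood at 2.92, 3.54 and 5.01 CPM in the mutant libraries, against 1.78 and 2.58 CPM in the empty vector libraries (log2 fold change 0.76, SE 0.15, adjusted p = 0.0110, and 0.101 or 0.0540 without EV replicate 1 or 2). Zeb2 rose by 0.26 (SE 0.05), Lyl1 by 0.24 (SE 0.05), Bcl11a by 0.52 (SE 0.12), the erythroid factor Klf1 by 0.83 (SE 0.22) and Sox4 by 1.04 (SE 0.28). Without either empty vector library the counts were 2 higher and 0 lower, without mutant 2 replicate 1 they were 3 and 1, and without any other mutant library 1 was lower.

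Among nuclear receptors of the LXR, PPAR and RXR families and their targets, 6 of 24 tested genes were called higher and 2 lower. Of all genes tested 6.68% were called higher and 4.2% lower. Rxra, the partner receptor of LXR and PPAR, stood at 25.6, 31.3 and 34.6 CPM in the mutant libraries, against 13.9 and 15.8 CPM in the empty vector libraries (log2 fold change 1.06, SE 0.12, adjusted p = 0.00111), and its call held without any 1 library. The lipid carrier Apoe stood at 18.3, 28.8 and 37.1 CPM in the mutant libraries, against 6.76 and 6.43 CPM in the empty vector libraries (log2 fold change 2.08, SE 0.38, adjusted p = 0.0231). Apoe lost its call without EV replicate 1 (adjusted p = 0.236), EV replicate 2 (0.134) or mutant 2 replicate 1 (0.0549). The cholesterol exporter Abca1 rose by 1.13 (SE 0.30) and the LXR target Mylip, a ubiquitin ligase of the LDL receptor, by 0.55 (SE 0.10). Beside Cpt1a, the PPAR target Angptl4 fell by 0.60 (SE 0.10). The counts were 5 higher and 1 lower without EV replicate 1, and 2 and 0 without the block.

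Cytokines and ligands of the TNF superfamily were called higher for 6 and lower for 4 of 28 tested. Of all genes tested 6.68% were called higher and 4.2% lower. The chemokine Ccl3 stood at 6.21, 7.58 and 12.5 CPM in the mutant libraries, against 2.63 and 3.67 CPM in the empty vector libraries (log2 fold change 1.41, SE 0.24, adjusted p = 0.00788), and Il1b at 2.83, 4.65 and 5.80 CPM in the mutant libraries, against 1.67 and 1.89 CPM in the empty vector libraries (log2 fold change 1.36, SE 0.24, adjusted p = 0.00658). Il6, the same cytokine that was supplied in the medium, stood at 52.4, 53.8 and 56.0 CPM in the mutant libraries, against 69.1 and 70.3 CPM in the empty vector libraries (log2 fold change -0.37, SE 0.04, adjusted p = 0.00106). None of these 3 genes had overlapping groups. Ccl3 without EV replicate 1 or 2 stood at adjusted p = 0.117 or 0.0615, and without EV replicate 1 Il1b stood at 0.0974. Ccl2 rose by 0.48 (SE 0.12) and Tnfsf9 by 0.79 (SE 0.14), while Il16 fell by 0.34 (SE 0.06) and Ccl17 by 1.51 (SE 0.22). Without EV replicate 1 the counts were 1 higher and 3 lower, without EV replicate 2 they were 1 and 4, and without mutant 1 replicate 2 or mutant 2 replicate 1 they were 3 and 4.

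Of 23 tested genes that handle nucleotides at the cell surface, 2 were called higher and 5 lower, against 6.68% and 4.2% of all genes tested. Beside Entpd1, Slc17a9, which loads ATP into vesicles, stood at 15.8, 17.6 and 19.1 CPM in the mutant libraries, against 25.9 and 23.0 CPM in the empty vector libraries (log2 fold change -0.48, SE 0.08, adjusted p = 0.00637, and 0.123 without EV replicate 1), with no overlap. The receptors for extracellular nucleotides went both ways, with P2ry14 lower by 0.27 (SE 0.05), P2ry1 lower by 0.38 (SE 0.10), P2ry2 higher by 0.95 (SE 0.25) and P2rx1 higher by 0.23 (SE 0.05). Without EV replicate 1 the counts were 1 higher and 0 lower, and 1 was higher without mutant 1 replicate 1, either library of mutant 2 or mutant 3 replicate 2. Of 16 tested lysosomal proteases 2 were higher, Ctsl and Ctsb (log2 fold change 0.31, SE 0.05, adjusted p = 0.00385, and 0.0621 without EV replicate 1), and Ctsc was lower (-0.34, SE 0.09, adjusted p = 0.0344, and 0.477 without EV replicate 1). Ctsc also lost its call without either library of mutant 1 (0.0639 and 0.0533), mutant 2 replicate 1 (0.0656) or mutant 3 replicate 2 (0.0682).

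The labelled cell type was set against its markers. The TPM values used for this were not scaled further between libraries. In both groups the expanded cells had high levels of mast cell and basophil transcripts, with the granule protease Cpa3 at 19390, 23190 and 26470 TPM in the mutant libraries, against 26970 and 27100 TPM in the empty vector libraries. Kit stood at 729, 919 and 1050 TPM in the mutant libraries, against 937 and 838 TPM in the empty vector libraries. The mast cell and basophil list summed to 71170, 73090 and 79500 TPM in the mutant libraries, against 78220 and 81020 TPM in the empty vector libraries. Of its 26 tested genes, Il13 was called higher and Il6 and Cd63 lower, a share near that of all genes, and the median log2 fold change was 0.01. Il13 passed narrowly (adjusted p = 0.0474) and lost its call without EV replicate 1 (0.403) or 2 (0.0964), either library of mutant 1 (0.0522 and 0.0834) or mutant 2 replicate 1 (0.0829), and Cd63 lost its call without EV replicate 2 (0.0842). The counts were 3 higher and 3 lower without mutant 2 replicate 2, 1 and 4 without mutant 3 replicate 1, 2 and 2 without mutant 3 replicate 2, and 0 and 1 without the block. In bulk RNA, fewer cells of a type and less RNA per cell cannot be told apart.

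Of the stem and progenitor markers, 16 were tested, 2 were called higher and 3 lower, against 6.68% and 4.2% of all genes tested. Cd34 stood at 346, 427 and 589 CPM in the mutant libraries, against 524 and 636 CPM in the empty vector libraries (log2 fold change -0.41, SE 0.09, adjusted p = 0.0167, and 0.266 without EV replicate 1). Procr, the endothelial protein C receptor and a marker of stem cells, stood at 0.918, 1.65 and 2.78 CPM in the mutant libraries, against 0.189 and 0.161 CPM in the empty vector libraries (log2 fold change 3.19, SE 0.32, adjusted p = 0.000463), and its call held without any 1 library. The TGF-beta coreceptor Eng rose by 0.81 (SE 0.16), while the stem cell factors Hlf and Mllt3 fell by 1.06 (SE 0.25) and 0.34 (SE 0.05). Eng, Hlf and Mllt3 stood at adjusted p = 0.136, 0.115 and 0.0534 without EV replicate 1. Hlf also missed the threshold without EV replicate 2 (0.191) or mutant 1 replicate 2 (0.0551). The counts were 1 higher and 0 lower if EV replicate 1 was left out, and without EV replicate 2 or mutant 1 replicate 2 they were 2 and 2. The list summed to 3678, 4151 and 4480 TPM in the mutant libraries, against 4175 and 4160 TPM in the empty vector libraries. Kit and Gata2 are also on the mast cell and basophil list, so this sum is not of stem and progenitor transcripts alone.

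Markers of other cell types were mostly low, except those of megakaryocytes, and their part in the results was not tested. Markers with a mean under 1 TPM made up 17 of 18 lymphoid, 15 of 17 neutrophil, 12 of 15 stromal and endothelial, 11 of 15 dendritic, 10 of 17 erythroid, 10 of 18 monocyte and macrophage and 6 of 9 eosinophil markers, but 6 of 13 megakaryocyte markers. The megakaryocyte list summed to 1539, 1925 and 2447 TPM in the mutant libraries, against 2183 and 1750 TPM in the empty vector libraries, so the groups overlapped. Its most abundant member, the integrin chain Itga2b, stood at 933, 1235 and 1622 TPM in the mutant libraries, against 1430 and 1086 TPM in the empty vector libraries (adjusted p = 0.869). The monocyte and macrophage list summed to 76.2, 89.0 and 104 TPM in the mutant libraries, against 127 and 112 TPM in the empty vector libraries. Its called member was Cx3cr1, a chemokine receptor, at 59.5, 69.5 and 102 CPM in the mutant libraries, against 183 and 157 CPM in the empty vector libraries (log2 fold change -1.20, SE 0.22, adjusted p = 0.0213), which lost its call without EV replicate 1 (0.269), EV replicate 2 (0.0532) or mutant 2 replicate 1 (0.0501). The defining gene Csf1r stood at 0.0472, 0.109 and 0.264 CPM in the mutant libraries, against 0.0568 and 0.147 CPM in the empty vector libraries. The neutrophil list varied widely, at 6.93, 129 and 404 TPM in the mutant libraries, against 69.2 and 386 TPM in the empty vector libraries, and 0 of its 6 tested members passed by edgeR or DESeq2, with 1 at an unadjusted p under 0.05 by edgeR. Of the other lists, the called members that were higher were the erythroid genes Epor (0.88, SE 0.15) and Klf1, the platelet protein gene Plek (0.26, SE 0.05), the class II genes H2-Ab1 (1.14, SE 0.24) and H2-DMa (0.48, SE 0.10), the lymphoid genes Cd79b (1.18, SE 0.27) and Il7r (2.00, SE 0.48), and Eng, which is also on the stromal and endothelial list. Bst2, on the dendritic cell list, was lower. Without EV replicate 1 the adjusted p was 0.0771 for Epor, 0.0678 for Klf1, 0.306 for H2-Ab1, 0.183 for Cd79b, 0.402 for Il7r, 0.136 for Eng and 0.261 for Bst2. Without EV replicate 2 it was 0.301 for Klf1, 0.0665 for Plek, 0.135 for H2-Ab1, 0.148 for H2-DMa and 0.0733 for Cd79b. Il7r (0.0534) and H2-Ab1 (0.0559) also missed the threshold without mutant 1 replicate 2, H2-Ab1 without mutant 2 replicate 1 (0.0551), and Klf1 without mutant 1 replicate 2, mutant 2 replicate 1 or either library of mutant 3 (0.0546 to 0.0821).

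Lists of energy production and antiviral defence held 2 called genes each. Of all genes tested 6.68% were called higher and 4.2% lower. Of 38 tested genes of the respiratory chain, Cox5a fell by 0.29 (SE 0.06) and Ndufa9 by 0.18 (SE 0.04), with a median of -0.09. Of 25 tested interferon response genes, Bst2 fell by 0.24 (SE 0.05) and Ifi27 by 0.34 (SE 0.08), with a median of 0.12. All 4 genes had overlapping groups and none passed without the block. Cox5a, Ndufa9 and Bst2 lost their calls without EV replicate 1 (adjusted p = 0.251, 0.282 and 0.261), Ifi27 without EV replicate 2 (0.244), and Ndufa9 also without either library of mutant 1, mutant 2 replicate 1 or mutant 3 replicate 2 (0.0562 to 0.0657). Without EV replicate 2, 7 respiratory chain genes were lower, and 2 interferon response genes were higher and 1 lower.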

How the data were processed

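RNA of 10 libraries was quantified per transcript, and 8 libraries (6 mutant ASXL2, 2 empty vector) entered the main comparison. The authors deposited, per the file headers, estimated counts and TPM (transcript abundance scaled by effective length) for each transcript. The submitters' processing notes name kallisto, DESeq2 and the build mm10. Versions and strand settings were not found in the labels or headers. Of 115088 transcripts, 114200 (99.2%) matched the annotation, and 888 did not and were left out. Deposited estimated counts were summed per gene over 47311 genes and rounded to whole numbers for testing, and TPM was summed per gene. kallisto shares reads among similar transcripts, so near-identical genes are uncertain.

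Libraries held 52422686 to 79320702 estimated counts. Genes passing edgeR's filterByExpr (a minimum of 10 counts, smallest class of 2) were normalised by TMM and tested with edgeR 4.0.16 (R 4.3.3) by its quasi-likelihood test, mutant against empty vector, blocked by batch as read from the deposited names. The threshold was a Benjamini-Hochberg adjusted p of 0.05 over all 17428 genes. SE values were worked back from the edgeR test, as the absolute log2 fold change over the square root of its F statistic. Within-batch differences used log2(CPM + 0.1). TPM was used as deposited, without further scaling between libraries. The batch difference of the empty vector libraries correlated with that of the mutant libraries at 0.588 over genes when batch was taken from the deposited names (0.452 to 0.539 over pairs) and at 0.351 when taken from the labels. Alternatives were no block, a block by the labels, libraries whose name matches the label, all 10 libraries, DESeq2 1.42.0, limma 3.58.1 on log2(TPM + 1) and log2(TPM + 0.1), DESeq2 size factors (RLE), other filters, a fold threshold of 1.2 and leaving out each library.

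Named genes were the 12 largest changes and the 6 smallest p-values each way, plus the PR-DUB list and up to 4 members of each pathway list with the smallest p. For the size and p rules a gene had to be called, average 5 CPM or more in the higher class, have 1 sign in both batches and carry no predicted symbol. Further list members were named after their values were seen. Some called list members are counted but not reported by name here. The members and the 22 pathway and 9 marker lists were chosen with earlier results of these data known. The main test was checked on simulated data.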

Additional observations from a re-analysis of the deposited data

Results flagged for a closer look

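Srebf2, a regulator of cholesterol synthesis, stood at 377.6 CPM in mutant 3 replicate 1, far from the other 5 mutant libraries, whose lowest was 307.4 CPM, against 294 and 262.4 CPM in the empty vector libraries. This was the 1 gene of 118 named ones with such a library by Dixon's test, where chance gives about 1 in 20. A single flag is thus no more than chance gives.

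In 4 lists every mutant library of batch 1 lay on one side of its empty vector library and every mutant library of batch 2 on the other, by the median over the list, and the difference was not tested. The median over the 3 libraries was -0.508 in batch 1 and 0.162 in batch 2 for mitosis. It was -0.17 in batch 1 and 0.356 in batch 2 for cholesterol synthesis. It was 0.126 in batch 1 and -0.073 in batch 2 for the interferon response, and 0.106 in batch 1 and -0.122 in batch 2 for stem and progenitor markers.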

How the results depend on the processing

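Counts of calls depended on the replicate block. Of 1164 genes higher and 732 lower, 231 and 48 were called with no replicate block, 178 and 28 with a block by the labels, 489 and 190 in libraries whose name matches the label, and 487 and 81 against a fold of 1.2. With limma on TPM, which was not scaled further between libraries, 512 genes were higher and 602 lower on log2(TPM + 1). On log2(TPM + 0.1) 624 were higher and 648 lower, so falls outnumbered rises in both. With 4 mutant libraries whose batch agrees in label and name, an alternative chosen after seeing the data, 487 were lower. Leaving out 1 library gave 445 to 1277 higher and 122 to 1114 lower. The interaction of construct and batch had 0 calls in edgeR (1828 genes at an unadjusted p under 0.05), 250 in DESeq2, and 0 to 9 with 1 library left out. Against full-length ASXL2, 71 genes became 0 with no replicate block (720 at an unadjusted p under 0.05), 1 with a block by the labels, 491 by DESeq2, and 2 to 111 with 1 library left out. Of the log2 fold changes of single named genes, 17 turned sign, none of a called gene: Bap1 (0.003 where names match labels, and -0.089 to 0.031 with 1 library left out), Ogt (-0.059 in both limma fits, -0.017 with 4 mutant libraries, and -0.103 to 0.127 with 1 left out), Foxk2 (-0.141 to 0.067 with 1 left out), Mbd5 (0.058 where names match labels, 0.006 with a filter of 1 CPM in 4 libraries, and -0.15 to 0.127 with 1 left out), Mbd6 (-0.011 in both limma fits, and -0.033 to 0.225 with 1 left out) and Birc5 (-0.559 to 0.079 with 1 left out). These 17, like the counts that follow, are pairs of a named gene and an alternative fit, so 1 gene can count several times. Of the other pairs, 1995 stayed on their side of the threshold, 321 lost the call and 24 gained it. The causes were not tested, and 1 empty vector library per batch limits every value.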

Other observations

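Genes outside the rule for named genes are given here as values, chosen after their values were seen. The fibroblast growth factor receptor Fgfr1 stood at 47.9, 56.2 and 67.5 CPM in the mutant libraries, against 32.5 and 26.3 CPM in the empty vector libraries (log2 fold change 0.96, SE 0.07, adjusted p = 8.6e-05 by edgeR). Il6st, the shared signalling chain of the IL6 receptor family, stood at 8.93, 11.3 and 15.8 CPM in the mutant libraries, against 4.85 and 2.79 CPM in the empty vector libraries (log2 fold change 1.66, adjusted p = 0.000145). Podxl, a sialomucin of the cell surface, stood at 9.32, 10.8 and 13.4 CPM in the mutant libraries, against 21.2 and 24.1 CPM in the empty vector libraries (log2 fold change -1.04, adjusted p = 0.000683). None of the 3 had overlapping groups.

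Noncoding transcripts were among the falls. Gm26880 stood at 91.2, 111 and 158 CPM in the mutant libraries, against 648 and 550 CPM in the empty vector libraries (log2 fold change -2.37, adjusted p = 0.000493). AU020206 stood at 28.3, 31.8 and 36.5 CPM in the mutant libraries, against 76.1 and 66.1 CPM in the empty vector libraries (log2 fold change -1.16, adjusted p = 8.6e-05). In both genes every mutant library lay below both empty vector libraries.

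The paralogues Apol7b and Apol7e took opposite levels. Apol7b stood at 0.888, 1.76 and 2.33 CPM in the mutant libraries, against 0.0568 and 0.0147 CPM in the empty vector libraries. Apol7e was listed at 0 in all 6 mutant libraries, against 1.97 and 1.44 CPM in the empty vector libraries. The quantification shares reads among near-identical copies, and its part in these values was not tested.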
